A study of Mus musculus with 16 samples.

Results

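The genes described here are 9 transcription factors of mesenchymal cells (Twist1, Twist2, Prrx1, Prrx2, Snai1, Snai2, Zeb1, Zeb2 and Tcf21) and Thy1, the gene of a surface protein by which fibroblasts are often recognised. They are 10 of the 21938 protein-coding genes of the GENCODE M21 annotation. They and the gene lists below were chosen by name, with earlier results of these data known. Chromatin immunoprecipitation and sequencing had been done with an antibody against RPB1, the largest subunit of RNA polymerase II (Pol II), and with one against histone H2B carrying a single ubiquitin (H2Bub1). The cells were mouse embryonic stem cells (mESCs) and mouse embryonic fibroblasts (MEFs) of the strain DBA/2 x C57BL/6, each as Atxn7l3+/+ (WT) and as Atxn7l3-/- (KO). All KO cells lacked Atxn7l3 from fertilisation on, since they came from crosses of heterozygous mice. The mESCs were derived from blastocysts and kept with LIF and kinase inhibitors. The MEFs were derived from E10.5 embryos without head and gut, and the KO cultures held many cells of round shape beside the elongated ones. Each mark, cell type and genotype is 1 library, so the 8 peak lists analysed form 8 groups without replicates. No difference below has a replicate check, no p-value is given, and the read depth is unknown.

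Transcription factors of the Twist, Snail and Zeb families bind E-box sequences in DNA and are known for turning off epithelial genes such as E-cadherin when epithelial cells become mesenchymal. Prrx1 and Prrx2 are paired-type homeodomain proteins of limb and craniofacial mesenchyme, and Tcf21 is a basic helix-loop-helix factor of the mesenchyme of kidney, lung and heart surface. ATXN7L3 is an adaptor that ubiquitin proteases of the SAGA type need to take ubiquitin off histone H2B, a mark that is found along transcribed genes.

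RefSeq promoter windows of GRCm38.p6, 300 bases from 250 bases before to 50 bases after an annotated start, were found for 7 of the 10 genes (10 windows, 4 of them at Zeb2). The 250 bases before the start are printed for 5 genes, because these promoters stand for the kinds of Pol II pattern described below. Twist1 and Prrx1 had Pol II in both MEF lists, Snai1 also in 1 mESC list, and Tcf21 in KO MEFs only, while the RefSeq start of Prrx2 lies where its highest fold in WT MEFs was found. The motif CACCTG is the E-box of Snail and Zeb factors. TATAAA is a TATA box. Capitals mark a match to either motif, each searched on both strands.
Twist1 (chr12:33957421-33957670, plus strand): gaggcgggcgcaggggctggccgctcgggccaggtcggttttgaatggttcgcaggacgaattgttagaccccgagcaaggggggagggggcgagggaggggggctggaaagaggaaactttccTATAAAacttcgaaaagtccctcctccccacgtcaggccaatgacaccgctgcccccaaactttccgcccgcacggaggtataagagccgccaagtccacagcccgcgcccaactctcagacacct
Snai1 (chr2:167537945-167538194, plus strand): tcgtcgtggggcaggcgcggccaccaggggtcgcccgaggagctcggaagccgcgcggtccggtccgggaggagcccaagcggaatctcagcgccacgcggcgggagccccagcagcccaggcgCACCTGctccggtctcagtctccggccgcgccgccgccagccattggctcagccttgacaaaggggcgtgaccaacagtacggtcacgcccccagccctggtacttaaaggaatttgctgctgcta
Prrx1 (chr1:163313651-163313900, minus strand): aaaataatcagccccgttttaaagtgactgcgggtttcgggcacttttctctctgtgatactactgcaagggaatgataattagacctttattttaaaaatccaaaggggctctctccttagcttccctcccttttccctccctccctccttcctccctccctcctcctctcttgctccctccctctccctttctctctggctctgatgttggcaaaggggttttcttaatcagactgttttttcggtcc
Prrx2 (chr2:30845117-30845366, plus strand): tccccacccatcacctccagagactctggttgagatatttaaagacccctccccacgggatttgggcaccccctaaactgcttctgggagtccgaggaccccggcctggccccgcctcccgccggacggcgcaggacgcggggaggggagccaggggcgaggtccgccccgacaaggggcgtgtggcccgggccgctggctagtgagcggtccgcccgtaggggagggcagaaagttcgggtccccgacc
Tcf21 (chr10:22820144-22820393, minus strand): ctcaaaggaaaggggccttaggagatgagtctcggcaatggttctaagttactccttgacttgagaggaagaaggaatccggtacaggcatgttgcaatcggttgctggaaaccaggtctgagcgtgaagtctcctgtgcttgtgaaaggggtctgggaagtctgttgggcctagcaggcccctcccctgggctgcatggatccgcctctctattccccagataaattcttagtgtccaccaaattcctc

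These promoters differed in base composition. CpG dinucleotides, counted over the 300 bases, numbered 34 at Snai1, 28 at Prrx2, 27 at Twist1 and 25 at Twist2, against a median of 7 over 32817 RefSeq promoters. Tcf21 had 8 and Prrx1 had 6, and the window of Zeb2 nearest to its gene start had 9. CACCTG was found on either strand in the window of 1 gene, Snai1, 126 bases before the start, and in 20.2% of all promoters. TATAAA was found in the window of Twist1 only, also 126 bases before the start, and in 13.6% of all promoters. Twist proteins bind other E-boxes. CATATG was in none of the 10 windows and in 3.92% of all promoters. For CATCTG the share was 17.2% of all promoters, and again none of the windows held it on either strand. A match or its absence describes these letters in these windows and no binding.

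The lists were first set against their labels. At Atxn7l3 itself, H2Bub1 peaks covered 100% of the gene in WT mESCs and 62.5% in KO mESCs, where the longest stretch without a peak was 2750 bp. In MEFs they covered 22.0% in WT and 65.3% in KO, and the Pol II promoter fold was 3.61 and 3.71 in mESCs of either genotype (WT, KO) and 20.9 and 23.4 in MEFs. The longest stretch without H2Bub1 in MEFs was 5078 bp for WT and 2541 bp for KO, so the MEF lists do not by themselves show the deletion. Of 10 pluripotency genes, 9 had a Pol II promoter peak in each mESC list, and of 10 fibroblast genes 10 had one in the WT and 9 in the KO list of MEFs, and 0 in either mESC list. The 4 Y-linked genes examined had Pol II promoter peaks in WT MEFs and in none of the other 3 lists, while Xist had promoter folds of 10.6 in WT and 16.8 in KO MEFs. H2Bub1 peaks covered none of the Y-linked genes in any list. The MEF libraries may therefore differ in the sex of their embryos or in its mix, since WT MEFs had the Xist peak too. In every MEF contrast below sex and genotype cannot be told apart. The Pol II lists held 17074 and 11963 peaks in WT and KO mESCs, and 45870 and 32232 in WT and KO MEFs. H2Bub1 peaks covered 71.6 and 151 Mb in WT and KO mESCs, and 48.1 and 223 Mb in WT and KO MEFs, with median folds of 2.69, 2.56, 3.09 and 2.32.

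Pol II at the 10 genes was found mainly in MEFs. A promoter peak, meaning a deposited peak with at least 1 bp within 1000 bp of the transcription start site (TSS) of the gene record, was present at 9 of the 10 genes in either MEF genotype. The shares among all protein-coding genes were 54.1% and 51.1%. In mESCs 2 of the 10 had one in WT and 1 in KO, against 33.9% and 31.3% of all genes. Twist1, Twist2, Prrx1, Snai2, Zeb2 and Thy1 had a promoter peak in both MEF lists and in neither mESC list, which is 6 of 10 against 14.1% of all genes. In mESCs the nearest Pol II peak lay 527 kb from the Twist1 TSS in WT and 528 kb in KO, and 344 kb from the Snai2 TSS in both. The mESC lists were weaker throughout. The median fold over all promoters with a peak was 4.39 (WT) and 4.53 (KO) in mESCs, and 13.2 and 11.5 in MEFs. Where an mESC peak is absent, cell type and weaker lists cannot be told apart.

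**Figure D1:**
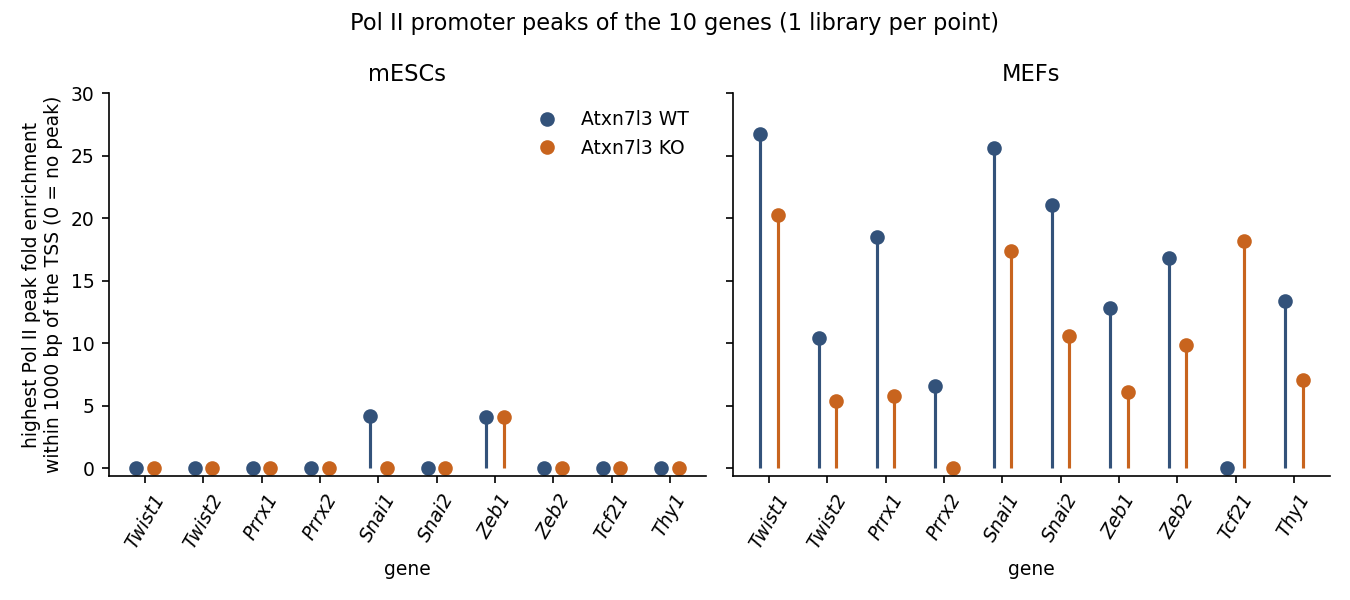
Highest Pol II peak fold within 1000 bp of the TSS (y axis, linear ratio, 0 where no peak was called) for the 10 genes (x axis) in mESCs and MEFs. Each point is 1 library, blue for WT and orange for KO. In MEFs the KO point lies under the WT point at 9 genes and above it at Tcf21 (0 in WT, 18.2 in KO).

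Snai1 and Snai2, of the Snail family, had promoter peaks in both MEF lists. Snai1 (ENSMUSG00000042821, chr2:167538195-167542814, plus strand) encodes the zinc finger repressor Snail. Its promoter fold, the enrichment of the peak over the local background, was 4.16 (WT) and 0 (KO, no peak) in mESCs, and 25.7 (WT) and 17.4 (KO) in MEFs. Snai1 was thus the only gene of the 10 with a promoter peak in 1 mESC genotype, WT, a pattern seen at 7.64% of all genes. No gene of the 10 showed the reverse, KO alone, against 5.13% of all genes. In KO mESCs the nearest Pol II peak lay 20.8 kb from the Snai1 TSS. The fold in WT MEFs was exceeded by 6.80% of the 11860 promoters with a peak in that list, and the fold in KO MEFs by 20.2% of 11213.

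Snai2 (ENSMUSG00000022676, chr16:14705852-14709385, plus strand) encodes the related repressor Slug. Its promoter fold was 0 in both mESC lists, 21.1 in WT MEFs and 10.6 in KO MEFs. Its fold in WT MEFs was exceeded by 15.9% of promoters with a peak and that in KO MEFs by 55.6%. The summits lay 63 and 62 bp downstream of the TSS, at nearly the same base in both genotypes. The WT peak ran from -1778 to 2151 bp relative to the TSS, and the KO peak spanned 0.904 kb in all. Pol II peaks covered 80.1% of the Snai2 gene in WT MEFs and 10.8% in KO MEFs. Snai1 showed the same order, with 77.7% in WT and 30.2% in KO.

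The Zeb genes, which encode large zinc finger and homeodomain repressors, are the longest of the 10. Zeb1 (ENSMUSG00000024238, chr18:5591860-5775467, plus strand) was the only one with a promoter peak in all 4 Pol II lists, at folds of 4.16 and 4.14 in WT and KO mESCs and 12.8 and 6.10 in WT and KO MEFs. The values of both mESC lists were within 0.01 of each other on the log2 scale. Zeb2 (ENSMUSG00000026872, chr2:44983632-45117395, minus strand) had folds of 0 in both mESC lists, 16.8 in WT MEFs and 9.86 in KO MEFs. A second Zeb2 peak 7.2 kb downstream of the TSS, near 1 of the 4 RefSeq starts, was higher still, at 19.2 in WT and 14.3 in KO MEFs. The antisense gene Zeb2os lies within 5000 bp of Zeb2 or inside it, and the lists do not separate strands.

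Twist1 and Twist2 encode closely related basic helix-loop-helix factors, and their Pol II levels differed. Twist1 (ENSMUSG00000035799, chr12:33957671-33959829, plus strand) had the highest promoter fold of the 10 genes in both MEF lists, 26.8 in WT and 20.3 in KO, and 0 in both mESC lists. It was exceeded by 5.35% of promoters with a peak in WT MEFs and by 12.0% in KO MEFs. Twist2 (ENSMUSG00000007805, chr1:91801461-91848028, plus strand) had folds of 10.47 (WT) and 5.38 (KO) in MEFs, and 0 in both mESC lists. It was exceeded by 64.6% and 87.0% of promoters with a peak. Twist2 thus ranked among the lower promoters and Twist1 among the higher ones in both lists.

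Prrx1 had the lowest KO to WT ratio of promoter fold among the 8 genes with a peak in both MEF lists. This gene (ENSMUSG00000026586, chr1:163245119-163313710, minus strand) had a promoter fold of 0 in both mESC lists, 18.5 in WT MEFs and 5.84 in KO MEFs. That KO value is that of a peak whose summit lies 1675 bp downstream, and the peak with its summit inside the window, 147 bp downstream, had a fold of 3.06. Pol II peaks covered 86.6% of the 68.6 kb of Prrx1 in WT MEFs and 2.61% in KO MEFs. Pol II summits over 1000 bp from the TSS numbered 28 in WT and 2 in KO. In WT MEFs a further peak with a fold of 20.7 had its summit 1554 bp past the gene end, where KO MEFs had no summit.

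Prrx2 (ENSMUSG00000039476, chr2:30834972-30881251, plus strand) was the only gene of the 10 with a promoter peak in WT and not in KO MEFs, at a fold of 6.57 against 0 in the other 3 lists. Among all genes 4.41% had a peak in WT and not in KO MEFs, whatever their state in mESCs. This call rests on the start of the gene record, since the WT peak has its summit at -1276 bp from it and the RefSeq start lies 10.4 kb downstream. At the RefSeq start the folds were 15.4 in WT MEFs and 8.78 in KO MEFs, so with the start of any annotated transcript Prrx2 had a promoter peak in both. A peak 30.1 kb downstream had folds of 7.55 in WT and 9.46 in KO, the reverse order. Asb6, a protein-coding neighbour on the other strand whose TSS lies at -4639 bp from that of Prrx2, had no Pol II promoter peak in any list.

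Tcf21 was the exception among the 10 genes. Its record (ENSMUSG00000045680, chr10:22817281-22820174, minus strand) had a Pol II promoter fold of 18.2 in KO MEFs and no promoter peak in either mESC list or in WT MEFs. It was the only one with a peak in KO and not in WT MEFs, which held for 1.46% of all genes. In WT MEFs the nearest Pol II peak was 87.2 kb from the TSS. In KO MEFs Pol II peaks covered 93.5% of Tcf21, and a stronger peak with a fold of 23.0 had its summit 827 bp past the gene end. The antisense gene Gm10824 lies within 5000 bp, and the lists cannot assign the signal to a strand.

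Thy1 (ENSMUSG00000032011, chr9:44043384-44048579, plus strand) had the same presence of promoter peaks as Twist1, Twist2, Prrx1, Snai2 and Zeb2. The promoter fold was 0 in both mESC lists, 13.4 in WT MEFs and 7.11 in KO MEFs. Pol II peaks covered 94.5% of the gene in WT MEFs and 9.06% in KO MEFs, where the single peak on it ended 470 bp downstream of the TSS. The wide coverage in WT and the short promoter peak in KO can be seen in the maps of peaks over single genes.

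**Figure D2:**
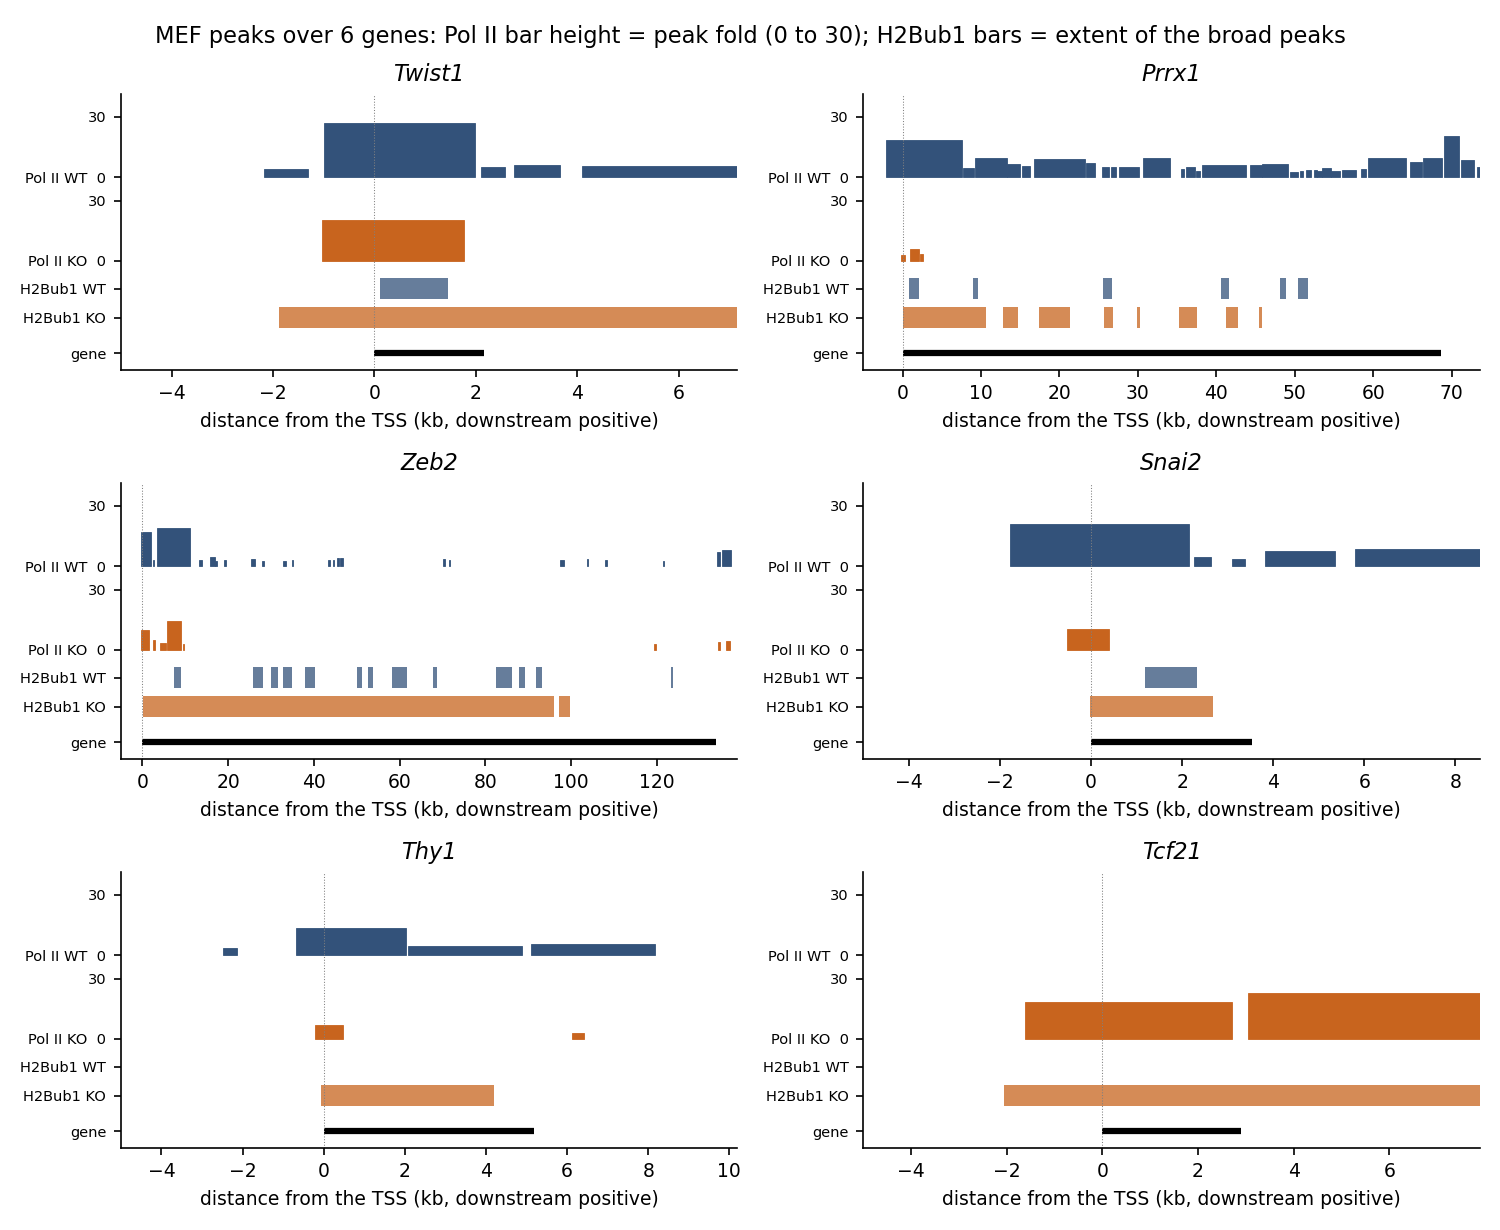
Peaks called in MEFs over 6 of the genes, drawn against the distance from the TSS (x axis, kb). The height of a Pol II bar is the peak fold on a scale from 0 to 30, the H2Bub1 bars show only the extent of the broad peaks, and the black line is the gene; blue is WT and orange is KO (1 library each). At Prrx1, Snai2 and Thy1 Pol II peaks run along the gene in WT, and within the gene they stay near the TSS in KO, while the H2Bub1 bars together cover more of the gene in KO at all 6.

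Between the MEF lists the promoter fold was lower in KO at all 8 genes that had a promoter peak in both. This was so at 67.7% of the 10892 promoters with both peaks, so the direction alone is common in these lists. The log2 ratio of KO to WT was -0.40 at Twist1, -0.56 at Snai1, -0.77 at Zeb2, -0.91 at Thy1, -0.96 at Twist2, -0.99 at Snai2, -1.07 at Zeb1 and -1.66 at Prrx1. Their median was -0.94, against -0.23 over all promoters with both peaks. At 6 of the 8, all but Twist1 and Snai1, KO was below WT by over 1.5-fold, which held for 24.3% of those promoters. With the TSS of any annotated transcript Zeb2 had 19.2 in WT and 14.3 in KO, and no longer passed 1.5-fold. Only 1.04% of those promoters had a lower ratio than Prrx1, and 36.3% had a lower one than Twist1.

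**Figure D3:**
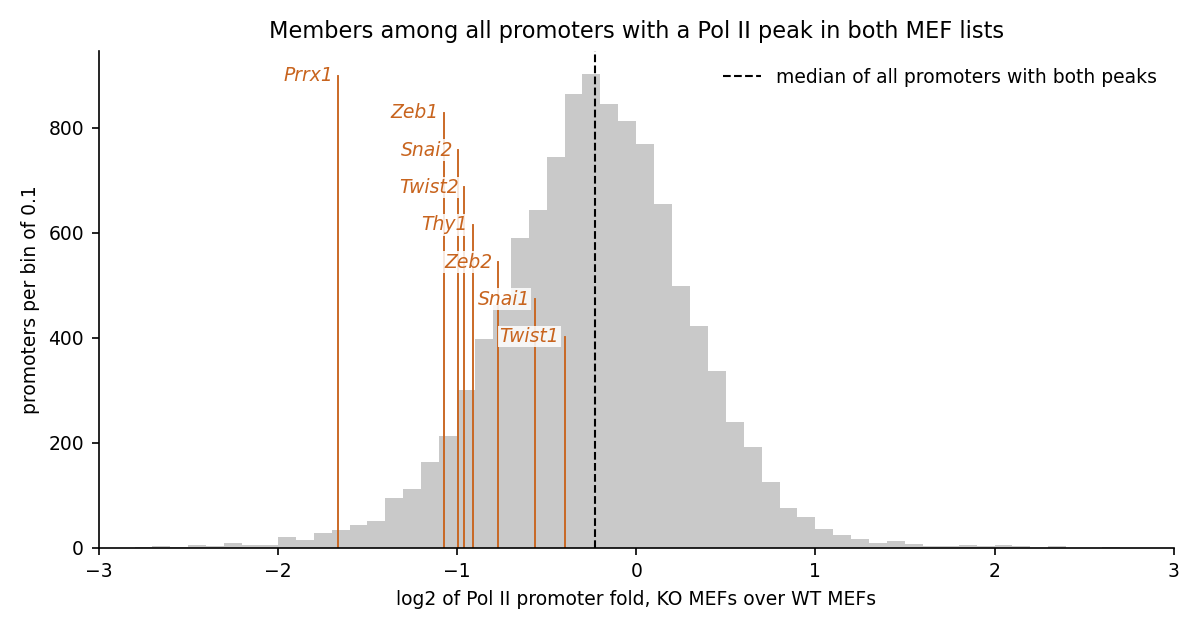
Distribution of the log2 ratio of Pol II promoter fold, KO over WT MEFs (x axis), over the 10892 promoters with a peak in both lists (grey, promoters per bin of 0.1), with the 8 genes marked in orange. All 8 lie to the left of the dashed median of -0.23, from -0.40 at Twist1 to -1.66 at Prrx1.

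The differences extended along the genes. All 9 genes with Pol II in WT MEFs had a smaller share of their length inside Pol II peaks in KO MEFs, as did 75.8% of all genes with any in WT. The contrast was small at Twist1, with 93.8% in WT and 82.1% in KO. The long genes Zeb1, Zeb2 and Prrx2 had 3.20%, 14.2% and 20.2% in WT and 1.15%, 5.43% and 4.40% in KO. Twist2 had 2.73% and 1.10%, its peaks being confined to the start of a long gene apart from 1 summit in the body. A Pol II summit within the gene and over 1000 bp from the TSS was present at 8 of the 10 genes in WT and 5 in KO MEFs, against 31.8% and 25.1% of all genes. With both lists cut to the same number of peaks the counts were 6 and 5. The number of such summits was 20 at Zeb2 in WT and 5 in KO, 9 and 3 at Prrx2, and 8 and 1 at Zeb1. In mESCs none of the 10 had one in either list, against 17.1% of all genes in WT and 11.2% in KO.

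Past the gene ends, where Pol II slows before it leaves the template, the MEF lists differed too. A summit within 5000 bp past the end was found at 8 of the 10 genes in WT and 4 in KO MEFs (Snai1, Zeb2, Tcf21 and Thy1), against 36.3% and 26.3% of all genes. The highest fold there was 10.1 in WT and 4.72 in KO at Snai1, 8.26 and 4.36 at Zeb2, and 5.81 and 3.03 at Thy1. At Twist1 it was 6.26, at Snai2 8.51 and at Zeb1 10.4 in WT, with no summit in KO. This measure was added after the values had been seen.

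H2Bub1 ran the other way in MEFs. The share of the gene from TSS to gene end inside H2Bub1 peaks was larger in KO than in WT MEFs at 10 of the 10 genes, against 52.6% of all genes. A larger share needs H2Bub1 in KO, which 11631 of all genes had, and 11541 of these had a larger share. The direction was thus the usual one for genes with H2Bub1 in KO MEFs. With only peaks of a -log10 q of 3 or more the difference at Prrx2 was 4.86 points in place of 53.1, and at Twist2 8.49 in place of 43.6. At least 1 bp of H2Bub1 was present at 7 of the 10 in WT and at all 10 in KO MEFs, against 30.4% and 53.0%, and with the stricter q the counts were 3 and 10. The median share over the 10 genes was 13.3% in WT and 74.8% in KO, against 0% and 4.29% over all genes. Where the genes were limited to those with a promoter peak of Pol II in the same list, the medians over all of them were 0.879% and 49.9%, and over the 9 here they were 17.7% and 75.9%.

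Twist2, Tcf21 and Thy1 had no H2Bub1 in WT MEFs. In KO MEFs H2Bub1 peaks covered 43.6% of Twist2, 100% of Tcf21 and 80.9% of Thy1. Twist2 and Thy1 had Pol II promoter peaks in WT MEFs, so 2 of the 9 genes with such a peak had no H2Bub1 peak, against 47.6% of all genes with one. Twist1 was covered over 62.4% in WT and 100% in KO MEFs, and Snai1 over 49.8% and 100%. Both short genes were thus fully inside H2Bub1 peaks in KO. Snai2 was covered over 32.4% in WT and 75.9% in KO.

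At Zeb1, Zeb2, Prrx1 and Prrx2, 4 of the long genes, H2Bub1 lay in several peaks in WT MEFs and covered more of the gene in KO MEFs. Zeb2 had 13 peaks over 17.7% of its length in WT and 2 peaks over 73.6% in KO. Zeb1 had 23 peaks over 25.4% in WT and 12 over 69.3% in KO. Prrx2 was covered over 3.98% in WT and 57.1% in KO, and Prrx1 over 9.04% and 32.2%. At Prrx1 the difference of 23.1 points was 11.2 with equal numbers of peaks and 13.6 with the stricter q. The number of peaks was larger in KO at both, with 2 in WT and 4 in KO at Prrx2, and 6 and 8 at Prrx1, where the KO peaks were 0.321 to 10.545 kb wide and the WT peaks 0.669 to 1.211 kb. In KO MEFs Prrx1 was the gene of the 10 with the smallest covered share, but with the stricter q Prrx2 and Twist2 had smaller ones.

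The fold of the H2Bub1 peaks, averaged by length, did not move as one with the covered share. It was lower in KO than in WT MEFs at 3 of the 7 genes with H2Bub1 in both, against 17.6% of all such genes. The values were 3.58 in WT and 2.45 in KO at Prrx1, 3.14 and 2.26 at Prrx2, and 3.46 and 2.54 at Snai2. It was higher in KO at Snai1, with 2.63 in WT and 4.0 in KO, and by less at Twist1 (3.66 and 3.91), Zeb1 (3.38 and 3.64) and Zeb2 (3.17 and 3.31). Folds are relative to the background of each library, and the bases averaged differ between the lists, so these means do not compare H2Bub1 at the same bases.

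H2Bub1 was also read in the RefSeq promoter windows. In WT MEFs none of the 10 RefSeq windows of these genes held H2Bub1, against 5.34% of all promoter windows. In KO MEFs 9 of the 10 did, against 33.3%. The full 300 bases were covered at Twist1, Twist2, Prrx2, Tcf21 and 3 windows of Zeb2, a pair of which overlap, 225 bases at Snai1 and 51 bases at Prrx1. The exception was the window of Zeb2 nearest to its gene start.

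In mESCs fewer of the genes carried H2Bub1. It was present at 3 of the 10 in WT and at 4 in KO, against 53.6% and 60.8% of all genes. The covered share was larger in KO at Twist1, Prrx2, Snai1 and Zeb1, which is 4 of 10 against 53.3% of all genes, and was 0 in both genotypes at the other 6. With only peaks of a -log10 q of 3 or more, 1 gene in either list had H2Bub1, Zeb1, with a difference of 3.03 points in place of 14.1, and the peaks at Twist1 and Snai1 described next did not pass. Snai1 was covered over 63.9% in WT mESCs and 98.1% in KO mESCs, although no Pol II peak was called on it in KO. Zeb1 was covered over 1.43% and 15.5%. Twist1 had no H2Bub1 in WT mESCs and was covered over 52.2% in KO mESCs, by 1 peak with a fold of 2.98 and with no Pol II peak nearby. The shares at Prrx2 were 2.77% and 3.90%, from peaks at different places in the gene.

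**Figure D4:**
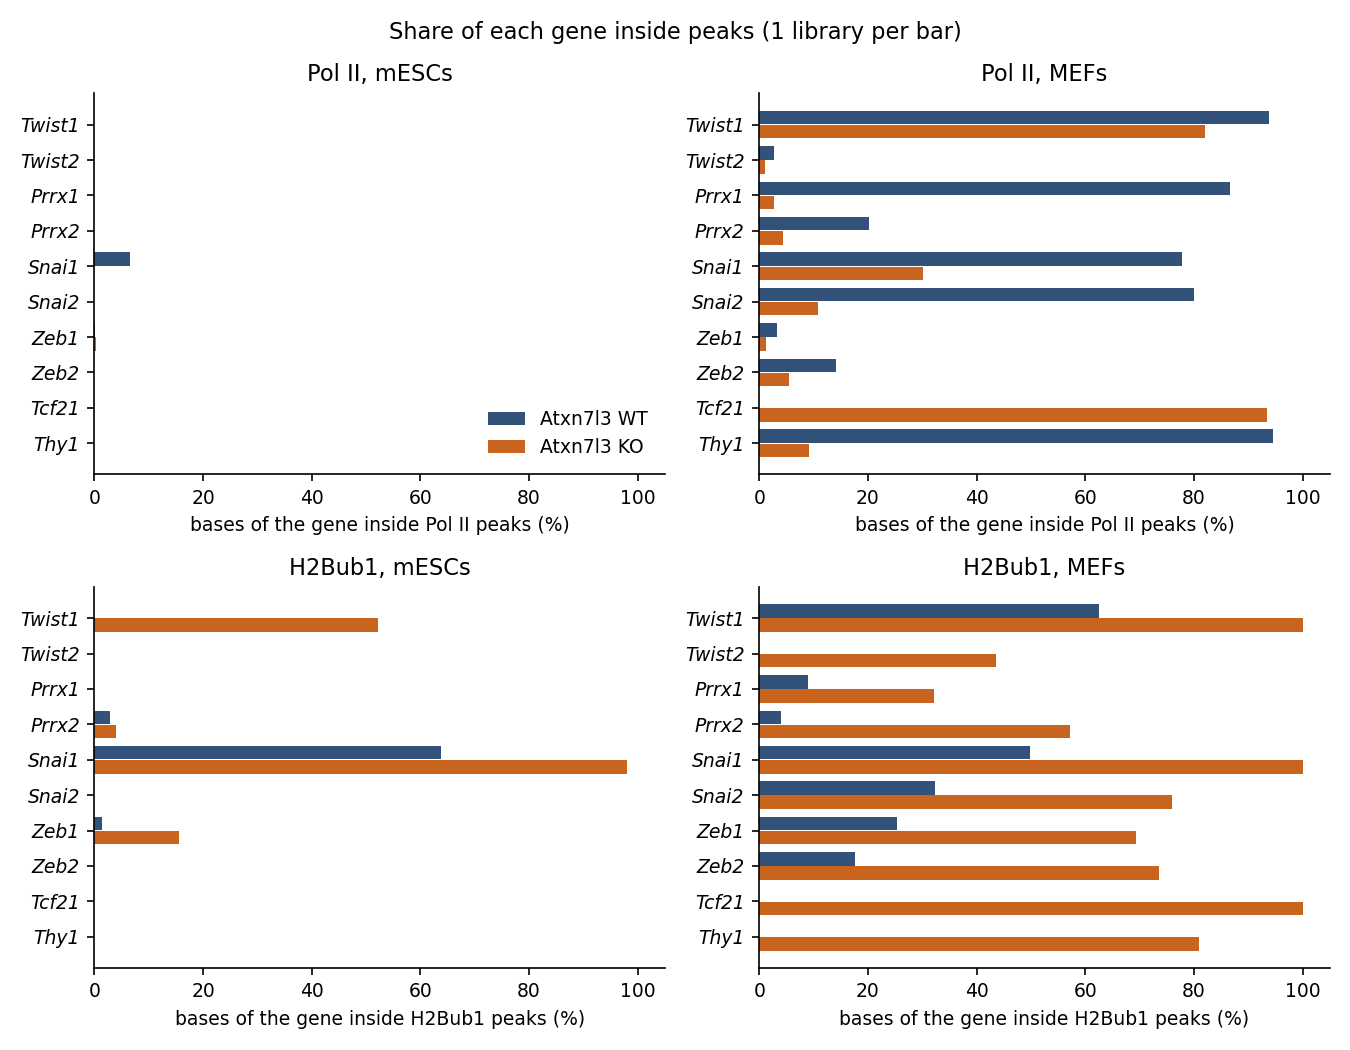
Share of each gene inside Pol II peaks (upper panels) and inside H2Bub1 peaks (lower panels), in percent of its bases (x axis), in mESCs (left) and MEFs (right). Blue bars are WT and orange bars KO, 1 library each. In MEFs the Pol II bar is shorter in KO at 9 genes and the H2Bub1 bar longer in KO at all 10.

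Both marks were then read together. All 8 genes whose promoter had Pol II in both MEF lists combined a lower Pol II fold with a larger H2Bub1 share in KO, as did 62.3% of all such promoters. Tcf21 had more of both in KO MEFs, from 0 in WT.

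For each gene the protein-coding gene with the most similar values was looked up, by the distance over 8 values (Pol II promoter fold on a log2 scale and H2Bub1 share in 4 lists each, scaled to an SD of 1). The nearest to Tcf21 was Bnc1, which encodes a zinc finger protein known from keratinocytes, at a distance of 0.011. Bnc1 had a Pol II fold of 18.5 and an H2Bub1 share of 100% in KO MEFs and 0 in all other lists. The nearest to Twist2 was the homeobox gene Irx3 (0.13), to Thy1 the homeobox gene Hoxa3 (0.15), to Snai2 Clec2d (0.30) and to Prrx1 Cyp1b1 (0.35). Larger distances were found for Snai1 and Vps37b (0.37), Zeb2 and Snx24 (0.40), Prrx2 and Npff (0.43), Zeb1 and Zc3h14 (0.55), and Twist1 and Mrpl30 (0.91). The distance is a description over 8 lists of single libraries.

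Genes that work with the 10 were taken as lists. Of 10 partners, the E-proteins that pair with Twist factors and the corepressors recruited by Snail and Zeb factors, all 10 had a promoter peak in both MEF lists. The fold was lower in KO at 7 and higher at 3, with a median log2 ratio of -0.28, near that of all promoters. The folds were 24.8 in WT and 14.3 in KO MEFs for the E-protein gene Tcf3, 22.6 and 12.8 for Tcf4, and 20.7 and 14.0 for Tcf12. The corepressor genes Ctbp1 (15.1 and 27.5), Kdm1a (16.3 and 19.6) and Hdac2 (16.6 and 19.3) were higher in KO. Of 15 relatives in the same protein families 7 had a promoter peak in WT MEFs and 4 in KO MEFs. Alx4, Shox2 and Msx2, homeobox genes of limb and face, had one in WT MEFs alone, with folds of 5.16, 7.28 and 6.57. Of the 4 with a peak in both, 3 were lower and 1 higher in KO. Msx1 had 23.8 in WT and 10.0 in KO, Scx 13.9 and 7.92, and Hand2, the one higher in KO, 7.96 and 10.52.

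Of 21 further transcription factor genes of mesenchyme, 19 had a promoter peak in WT MEFs and 8 in KO MEFs, 11 of them in WT and not in KO, and none the other way. With the start of any annotated transcript the counts were 20 and 13. Ebf1 and Ebf3, genes of early B-cell factors also active in stroma, had folds of 19.3 and 13.7 in WT MEFs and no peak in KO MEFs. The limb and trunk mesenchyme genes Osr2 (12.8) and Tbx5 (7.55) likewise had a peak in WT and none in KO MEFs, and Osr2 had one in both mESC lists as well (3.55 in WT and 6.04 in KO). Of the 8 with a peak in both, 7 were lower in KO and 1, Meis2 (11.4 and 15.4), was higher. Foxc1 had 19.2 in WT and 6.23 in KO, and Hic1 17.97 and 9.42. Of the 9 genes described here with a promoter peak in WT MEFs, 8 also had one in KO MEFs. In this list it was 8 of 19, and over all genes 10892 of 11860. Peak height in WT MEFs differed too. Apart from Ebf1, Ebf3, Osr2 and Tbx5, the genes of this list with a peak in WT MEFs alone had folds of 3.41 to 7.18. The 8 genes described here with both peaks had WT folds of 10.47 to 26.8, and Prrx2 had 6.57. The part of peak height in this contrast was not tested.

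Products of mesenchymal cells differed in level more than in presence. Of 18 such genes 17 had a promoter peak in WT MEFs and 16 in KO MEFs, with a median log2 ratio of -0.93 over the 16, of which 15 were lower and 1 higher in KO. Col3a1 had folds of 49.2 in WT and 18.1 in KO, Col1a2 43.3 and 19.4, and Fn1 40.0 and 20.8. Postn, which encodes the matrix protein periostin, had 26.6 in WT and no peak in KO. Of 13 stromal surface markers 10 had a promoter peak in WT MEFs and 6 in KO MEFs. Itga11 (9.33), Fap (7.12), Cspg4 (5.52) and Nt5e (4.82) had one in WT and not in KO MEFs, and Pdgfrb (21.9 and 8.80), Cd44 (20.8 and 6.93) and Vcam1 (15.1 and 16.1) had one in both. Of the 6 with a peak in both MEF lists 3 were lower and 3 higher in KO (Vcam1, Alcam and Mcam), with a median log2 ratio of -0.08.

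Epithelial genes, known targets of repression by Snail, Zeb and Twist factors or antagonists of these factors, had few Pol II promoter peaks in either MEF list. Of 20 such genes 2 had one in each MEF list and 5 in each mESC list. Esrp2, a splicing factor gene of epithelia, had folds of 9.56 in WT and 17.7 in KO MEFs. Crb3, a polarity gene, had 5.22 in KO and no peak in WT MEFs, and Lgals4 had 2.21 in WT and none in KO MEFs. Cdh1, the gene of E-cadherin, had 4.77 and 3.57 in WT and KO mESCs and no promoter peak in MEFs.

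Markers of other cell types moved with the contrast of WT and KO MEFs. Of 6 mesothelial markers (mesothelium being the epithelium that lines body cavities), 0 had a promoter peak in WT and 5 in KO MEFs. Their folds in KO MEFs were 38.6 at Upk1b, 18.1 at Upk3b, 14.2 at Lrrn4, 11.6 at Wt1 and 10.2 at Msln, and Krt19 had no promoter peak. The summed fold of the list was 0 in the lists of mESCs and WT MEFs and 92.6 in that of KO MEFs. Tcf21 shared this pattern, while the summed fold of the 10 fibroblast markers was 236 in WT and 134 in KO MEFs. Of the 9 fibroblast markers with a peak in both MEF lists, 7 were lower and 2 higher in KO. The part of these cells in the values of the 10 genes was not tested.

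The other marker lists moved less. Of 6 blood markers 2 had a promoter peak in WT MEFs and 4 in KO MEFs, with summed folds of 24.8 and 36.8. Adgre1 (5.40) and Csf1r (3.53), genes of macrophages, had one in KO MEFs alone, and Spi1, a transcription factor gene of myeloid cells, had 4.93 in WT and 8.42 in KO. Cd68, a lysosomal gene with peaks in mESCs too, had 19.9 and 19.5. The defining genes Ptprc and Hbb-y had none in any list, but H2Bub1 covered 11.5% of Ptprc in KO MEFs and none of it in WT. Of 6 endothelial markers 1 had a promoter peak in each MEF list, Kdr (2.61) in WT and Pecam1 (4.31) in KO. Of 5 neural markers 2 had one in each MEF list, Tubb3 (10.6 and 3.24) and Nes (7.44 and 3.88), and none of 6 muscle markers had one in either. Of the 10 pluripotency markers 2 had one in WT and 3 in KO MEFs, with Tfcp2l1 (7.08) in KO and not in WT, and Klf4 (26.8 and 25.8) and Klf2 (23.8 and 27.6) in both. Fewer cells of a type and less signal per cell cannot be told apart in bulk chromatin.

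**Figure D5:**
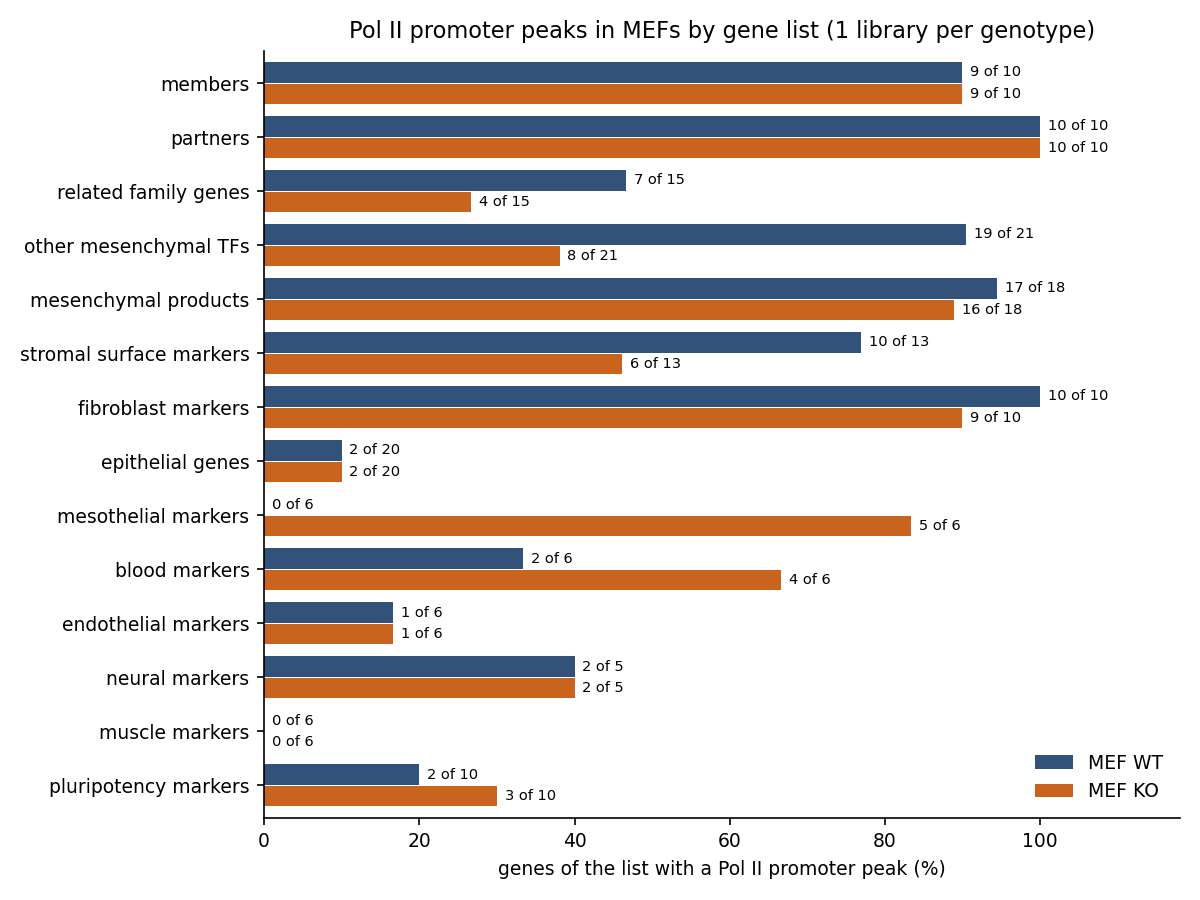
Share of the genes of each list with a Pol II promoter peak (x axis, percent, with the counts beside the bars) in WT MEFs (blue) and KO MEFs (orange), 1 library each. The 10 genes described here (members) have 9 of 10 in both, the other mesenchymal transcription factors (TFs) 19 and 8 of 21, and the mesothelial markers 0 and 5 of 6.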

How the data were processed

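The labels describe 16 samples, and the 8 with antibodies against RPB1 or H2Bub1 were analysed. Inputs, and samples taken with an antibody against serine-phosphorylated Pol II, were not analysed here. The authors converted reads with bcl2fastq 2.17.1.14, aligned them to mm10 with Bowtie 1.0.0 and, library by library, called narrow (Pol II) or broad (H2Bub1) peaks with MACS2 2.1.1.20160309, per the submitters' processing notes. The control and thresholds of calling are not given in the sources used here. N-ethylmaleimide, an inhibitor of deubiquitylation, was in the buffers. The authors scaled H2Bub1 signal over intergenic regions and Pol II signal by mapped reads, and how this entered the calls is not stated.

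Each deposited peak has a fold, the linear ratio of its signal to the local background. The authors' -log10 p and -log10 q values were used for the alternatives alone, and the deposited integer score was not used. Narrow peaks reach down to a -log10 q of 1.33 and broad ones to 1.00. The files hold no read counts, so depth is unknown, and a deeper library gives more and wider peaks.

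Positions were made 1-based and set against GENCODE M21 (GRCm38, the same build) on 21 chromosomes. The promoter fold was the highest fold of peaks with 1 bp or more within 1000 bp of the TSS of the gene record, or 0. Covered shares are bases of the gene inside peaks. Protein-coding genes of all kinds formed the background, and values were computed on the whole table. The 10 genes, the gene lists and the measures were chosen with earlier results of these data known. Named from each other list were up to 4 genes with a promoter peak in 1 MEF genotype only, by fold, and up to 3 with the highest fold in WT MEFs. Cdh1, Krt19, Ptprc, Hbb-y, Alcam, Mcam, Ctbp1, Kdm1a, Hdac2, Meis2, the Y-linked genes, Xist and the fifth mesothelial gene, Msln, fall outside this rule and were named after their values had been seen. The nearest gene used log2(1 + fold).

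The alternatives tried were a stricter -log10 q (3 or more), lists of a WT and KO pair cut to the same length, promoters from 100 bp upstream to 300 bp downstream or of 5000 bp on either side, the TSS of any annotated transcript, the summit in the window, body summits from 300 bp, H2Bub1 peaks under 1000 bp apart joined, gene bodies from 1000 bp downstream, and a call at 10% of the gene body. With 1 library per group no test, interval or replicate comparison was made. The functions were tested on simulated peaks. Computing used Python 3.11.15, numpy 2.4.6 and pandas 2.3.3.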

Additional observations from a re-analysis of the deposited data

Results flagged for a closer look

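Zeb1 and Snai1 had values whose KO minus WT difference went one way in mESCs and the other way in MEFs, each between single libraries. The share of Zeb1 inside Pol II peaks differed by 0.099 percentage points in mESCs (0.18% in WT and 0.28% in KO) and by -2.06 points in MEFs (3.20% and 1.15%). The length-averaged H2Bub1 fold of Zeb1 differed by -0.60 in mESCs (3.61 and 3.01) and by 0.26 in MEFs (3.38 and 3.64). That of Snai1 differed by -0.011 in mESCs (2.72 and 2.71) and by 1.37 in MEFs (2.63 and 4.0). None of these differences was tested, and the mESC differences at Zeb1 in Pol II and at Snai1 are close to 0.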

How the results depend on the processing

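Of the 48 log2 ratios of Pol II promoter fold in MEFs (8 genes, 6 alternatives), 44 were identical to the main value because the same peaks were selected, so they say little of stability; only Prrx1 and Zeb2 were altered, and both stayed negative. Prrx1 ran from -2.60 (summit in the window, or the narrow promoter) to -1.66, and Zeb2 from -0.96 to -0.43, the latter with the TSS of any annotated transcript. The count of genes with a promoter peak in WT MEFs only, 1 in the main analysis (Prrx2), was 0 with the narrow promoter, with the TSS of any annotated transcript and with the summit in the window. The H2Bub1 share was larger in KO MEFs at all 10 genes under the 4 alternatives run on it, but its size depended on them: 8 of 40 differences moved by over 1.5 times. With a -log10 q of at least 3 the difference in points was 4.86 at Prrx2 (53.1 in the main analysis), 8.49 at Twist2 (43.6) and 13.6 at Prrx1 (23.1), while it was larger at Snai1 (100 in place of 50.2) and Snai2 (75.9 in place of 43.5). With equal numbers of peaks it was 11.2 at Prrx1, and from 1000 bp downstream it was 21.2 at Snai2 and 60.4 at Twist1 (37.6). With a -log10 q of at least 3, H2Bub1 was present at 1 gene in either mESC list and at 3 in WT MEFs, and the share was larger in KO mESCs at 1. With a call at 10% of the gene body 1 gene had H2Bub1 in WT mESCs. Of the other mesenchymal transcription factor genes 13 had a promoter peak in KO MEFs with the TSS of any annotated transcript, and 1 mesothelial marker had a peak within 5000 bp of its TSS in WT MEFs. The causes were not tested. No paired analysis was possible because each group is 1 library and no result comes from a test. Depth limits weak peaks, since the absence of a peak is not the absence of Pol II or H2Bub1.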
